A study of Arabidopsis thaliana with 12 samples.

Results

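CCL and GI are Arabidopsis genes whose transcripts follow the circadian clock, and their levels were followed 5 min after rosette leaves were mechanically wounded. The platform annotation assigns 1 spot to each of them, so that the 2 genes rest on 2 of the 22575 spots of the array. The pair was chosen by its place in the clock and with the measured ratios of wounded over not wounded leaves already known, so the values of that contrast are given for CCL and GI as a description with no test. Both spots passed the filter on low values, which 20072 of 22493 genes and unnamed spots passed.

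The plants were of ecotype Columbia-0 (Col in the labels) and grew in soil. Leaves crushed with a hemostat and collected after 5 min were compared with leaves that were not wounded, and both groups carried no other treatment. Each of 3 biological replicates was a pair of pools of plants, which was hybridised on 4 two-colour Agilent arrays, 2 technical replicates in each of both dye orientations. Of the 12 arrays in all, 6 held the wounded cRNA in Cy5 (Cy5-wounded arrays) and 6 held it in Cy3 (Cy3-wounded arrays). Wounding was done some hours after dawn. The methods describe long days, but the growth label abbreviates the photoperiod in a way that does not settle which part was light, and the time at which the not wounded leaves were collected is not given in the sources used here. RNA came from whole leaves, so a change in RNA per cell and a change in the share of a cell type cannot be told apart.

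The plant clock is a set of transcriptional repressors and activators that hold each other's genes down or switch them on at different hours of the day. GI (GIGANTEA, AT1G22770) encodes a large plant-specific protein of its evening arm. GI protein stabilises the F-box photoreceptor ZEITLUPE and, together with the related FKF1, removes the CDF repressors from the flowering gene CONSTANS, and its transcript peaks late in the light period. CCL (CCR-LIKE, AT3G26740) encodes a small protein of little known function. Its messenger RNA is unstable and is known for a decay rate that itself follows the clock, through a decay pathway that reads the downstream (DST) elements of some short-lived plant messages. GI therefore stands for the machinery of the clock, and CCL for its output.

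Spots whose deposited log ratio is exactly 0 numbered 1129 to 2714 per array. The 95th percentile of their signals, taken here as the dim limit of an array, ranged from 81.0 to 124. The leaf genes RCA, which encodes Rubisco activase, and LHCB4.2, a light-harvesting protein, were above the dim limit in both samples on 12 of 12 arrays. These are the 2 of 10 listed leaf markers that have a named spot. RCA was lower after wounding (log2 ratio -0.45 ± 0.19, SD over 3 replicates, limma adjusted p = 0.041), while LHCB4.2 stood at -0.10 ± 0.11 (limma adjusted p = 0.37). Of 8 markers of root, flower and seed only PYK10, a beta-glucosidase abundant in roots, has a named spot. Its signal was under the dim limit on 0 arrays in the wounded and on 1 array in the not wounded sample. This root marker was thus mostly above the limit in these leaf samples. The log2 ratio of PYK10 was -0.62, 0.69 and 0.20 in the 3 replicates. The mean log2 ratio of PYK10 also differed with the dye, at 0.63 over Cy5-wounded and -0.44 over Cy3-wounded arrays.

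CCL was a bright spot. In replicate 1 its processed signal was 13900, 15400, 16000 and 15700 in the wounded sample, against 6430, 7260, 7620 and 7150 in the not wounded sample on the same arrays. In replicate 2 the wounded signals were 28900, 30400, 28400 and 25300 against 9360, 10000, 12600 and 11200. In replicate 3 they were 18300, 12700, 18300 and 19000 against 8810, 5920, 6330 and 6610. The wounded sample was the brighter on each of the 12 arrays, whichever dye it carried, and the lowest wounded signal of all, 12700 in replicate 3, was just above the highest not wounded signal, 12600 in replicate 2. Of all tested genes and spots, 7.47% were higher on 12 of 12 arrays and 0.533% had groups that did not overlap in this way. Replicate 2 was the brightest of the 3 in both samples. In each array 96.3% to 98.0% of the spots were dimmer than CCL in the wounded sample and 93.0% to 96.0% in the not wounded sample, which describes the brightness of the spots and not the abundance of one transcript against another.

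**Figure D1:**
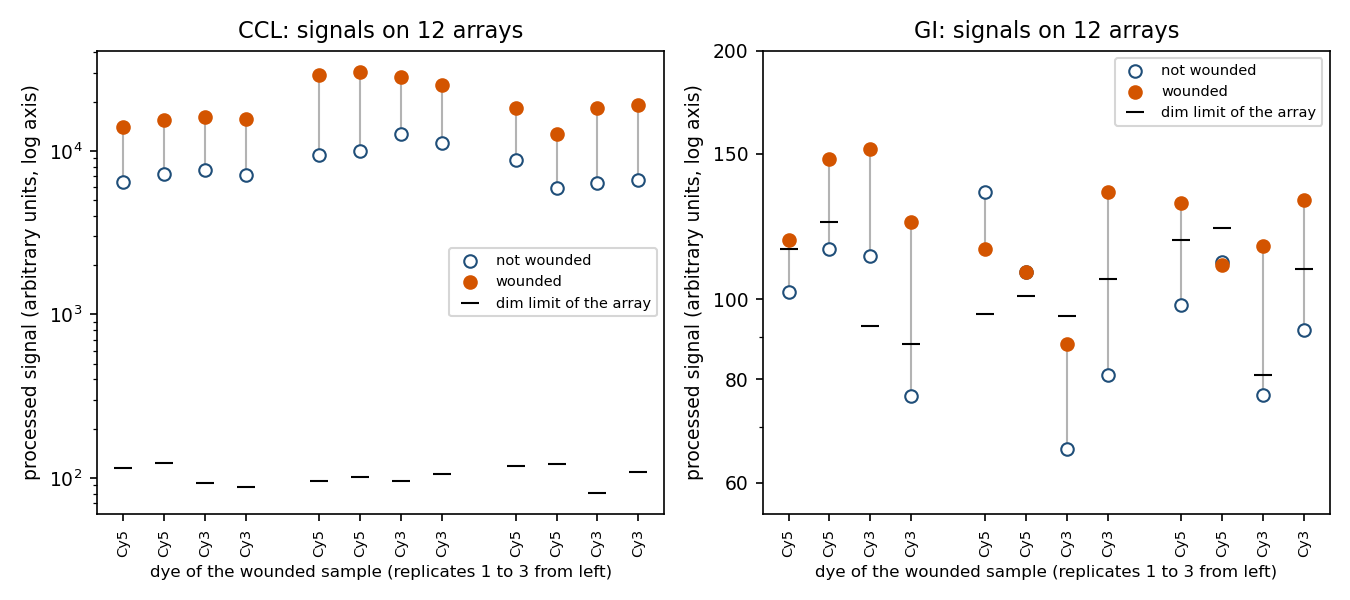
Processed signal (log axis) of the CCL and GI spots on the 12 arrays, with the wounded (filled) and not wounded (open) samples of an array joined by a line and the dim limit of that array as a dash. The wounded sample of CCL lies above the not wounded sample on every array and far above the dim limit, whereas the GI signals lie around the limit, with not wounded signals below it on 9 of 12 arrays.

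The mean log2 ratio of wounded over not wounded for CCL was 1.27 ± 0.15 (SD, n = 3 biological replicates), a fold change of 2.40. Per biological replicate the log2 ratio was 1.10, 1.39 and 1.30, and on single arrays the fold change ran from 2.08 to 3.09. CCL was therefore over 2-fold higher on every array. A mean rise of at least 2-fold was found for 0.702% of all tested genes and spots, and 74 of the 20072 had a higher mean log2 ratio than CCL, 33 of them among the 8734 with a gene name.

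Within replicates 2 and 3 the arrays of CCL fell into 2 levels that matched the dye orientation. In replicate 1 the log2 ratio was 1.10 in either orientation. In replicate 2 it was 1.62 on Cy5-wounded and 1.17 on Cy3-wounded arrays. In replicate 3 the order turned, with 1.08 on Cy5-wounded and 1.53 on Cy3-wounded arrays. Technical replicates of one orientation differed by 0.003 to 0.065 on the log2 scale, far less than the 0.44 and 0.45 between orientations in replicates 2 and 3. Over all tested spots the median absolute difference between orientations was 0.36, 0.38 and 0.64 on the log2 scale in the 3 replicates. Because the 2 differences of CCL have opposite signs they cancel in the mean, and the mean log2 ratio of CCL was 1.26 over Cy5-wounded and 1.27 over Cy3-wounded arrays.

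The dye contrast did not enter the choice of the genes and was tested. The log2 ratio of Cy5 over Cy3, with orientations balanced within each replicate, was -0.002 ± 0.22 (SD, n = 3) for CCL, with a limma adjusted p of 0.99. For GI it was -0.22 ± 0.11 (SD, n = 3), with a limma adjusted p of 0.10. Of all tested genes and spots, 23.8% had a dye effect at an adjusted p under 0.05, so neither CCL nor GI was among them. With 3 replicates a p that misses this threshold does not show that a spot is free of a dye effect, and for GI the dye value had the same sign in 3 of 3 replicates, from -0.35 to -0.14. The test also addresses only a dye effect shared by the replicates. For CCL the dye values were -0.002, 0.22 and -0.22 in replicates 1, 2 and 3, and the last 2 cancel in the mean.

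**Figure D2:**
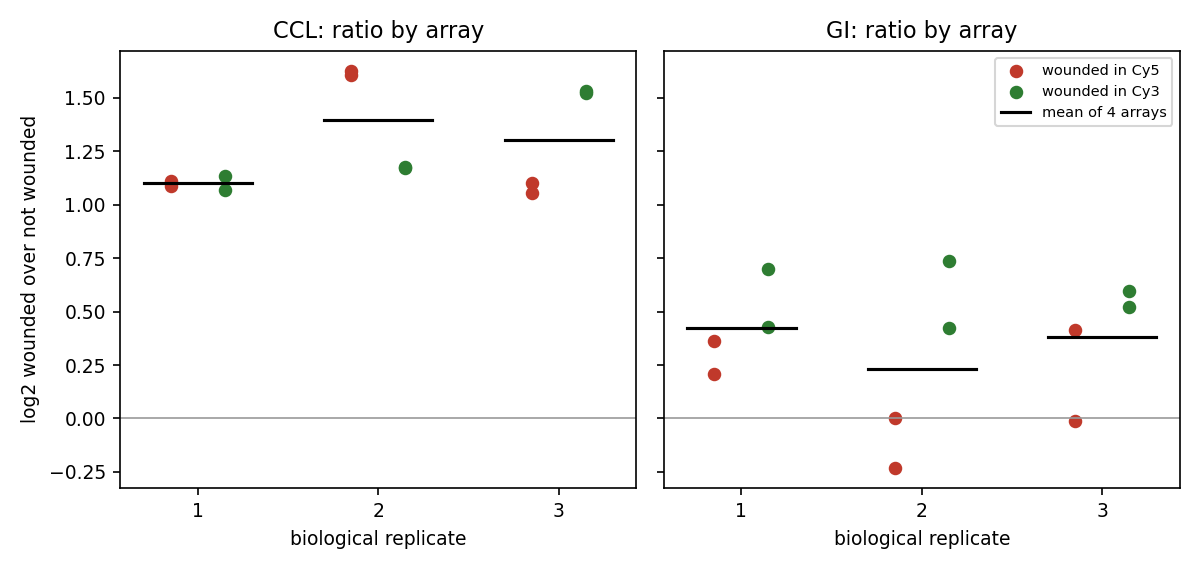
Log2 ratio of wounded over not wounded for CCL and GI on each array, by biological replicate, Cy5-wounded in red and Cy3-wounded in green, and the mean of the 4 arrays as a bar. The CCL points lie between 1.05 and 1.63, with the dyes apart in opposite directions in replicates 2 and 3, and the GI points lie between -0.23 and 0.74, with the Cy3 points higher in all 3 replicates.

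GI was a dim spot. In replicate 1 its processed signal was 118, 148, 152 and 124 in the wounded sample, against 102, 115, 113 and 76.5 in the not wounded sample. In replicate 2 the wounded signals were 115, 108, 88.4 and 135 against 135, 108, 65.9 and 81.0. In replicate 3 they were 131, 110, 116 and 132 against 98.4, 111, 76.7 and 91.9. The ranges overlapped, 88.4 to 152 in the wounded and 65.9 to 135 in the not wounded sample, and the wounded sample was the brighter on 9 of 12 arrays. The other 3 were all Cy5-wounded arrays, and on 1 of these the signals were equal. The not wounded sample lay under the dim limit on 9 of 12 arrays, and on 2 of these the wounded sample did too. No deposited ratio of GI was set to exactly 0.

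The mean log2 ratio of GI was 0.35 ± 0.10 (SD, n = 3 biological replicates), a fold change of 1.27, with 0.42, 0.23 and 0.38 in the 3 replicates. It was 0.57 over Cy3-wounded and 0.12 over Cy5-wounded arrays. Within replicate 2 these were 0.58 and -0.12, so that the direction of GI in this replicate differed with the dye. With each signal below the dim limit of its array raised to that limit, the mean log2 ratio was 0.19 ± 0.14 (SD, n = 3). Among all tested genes and spots 1648 had a higher mean log2 ratio. Technical replicates of one orientation differed by 0.074 to 0.43 on the log2 scale, the upper end of which exceeds the mean ratio itself, whereas for CCL they differed by a small part of it.

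To set the samples of different arrays side by side, the log2 signal was taken relative to the median of its channel, and the 4 arrays of a pool were averaged. CCL then stood at 4.25, 4.89 and 4.38 above the median in the not wounded pools of replicates 1, 2 and 3, and at 5.35, 6.29 and 5.66 in the wounded pools. The SD over the 4 arrays of a pool was 0.08 to 0.32. From lowest to highest the order was replicate 1, 3 and 2 among the not wounded pools and then replicate 1, 3 and 2 among the wounded pools. Replicates 1 and 3 differed by less than the SD over the 4 arrays of the replicate 3 pool, in both groups. All 3 wounded pools were above all 3 not wounded pools. The pools of one group thus differed by up to 0.94, compared with a mean rise of 1.27, while the rise itself varied between replicates by an SD of 0.15. GI stood below the median of its channel in each pool, at -1.89, -1.94 and -1.81 in the not wounded and -1.47, -1.71 and -1.45 in the wounded pools of replicates 1, 2 and 3, with SDs over arrays of 0.16 to 0.43. The 3 wounded pools were also the upper 3 for GI, but any neighbours in this order differed by less than the larger of their SDs over arrays. The share of all tested genes and spots whose pools part in this way was not counted. The pool order therefore does not set CCL or GI apart from other genes.

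Genes whose levels over the 6 pools most resembled those of CCL were sought among 8733 other named genes, by the distance between log2 levels centred on each gene's mean. AT3G53990, of the universal stress protein family, came first with a distance of 0.14 and a Pearson r of 0.998. AT3G15630 followed with 0.15 (r = 0.999), and COR15B, a chloroplast protein induced by cold, with 0.17 (r = 0.996). The median distance of the other named genes from CCL was 1.80. The log2 ratios of the 3 were 1.19, 1.35 and 1.24, and each of them, like CCL, had replicate 2 as its highest pool in both groups. Because they were picked by distance over these same levels, a ratio, r and pool order near those of CCL follow from the choice. For the genes nearest to GI a ratio and r near those of GI follow from the choice in the same way. None of the 3 nearest to CCL had a not wounded signal below the dim limit. For GI the nearest were AT3G52240, AT5G15640 and AT2G28590, with distances of 0.14, 0.14 and 0.15 and r of 0.96, 0.95 and 0.95, against a median of 0.80. AT2G28590 was dim in the not wounded sample on 12 of 12 arrays. All 6 pools share arrays in pairs, and r over 6 points is given as a description.

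Of 62 genes listed for the clock and its outputs besides CCL and GI, 6 have a named spot, and 56 do not and are not analysed here. Among the latter are the core repressors CCA1, LHY and TOC1, the other pseudo-response regulators, the evening complex, ZEITLUPE and FKF1. All 6 were tested, and by limma at an adjusted p under 0.05 the list had 0 rises and 0 falls, against 7.25% and 7.24% of all tested genes and spots. At an unadjusted p under 0.05 it had 0 rises and 1 fall, where 16.6% of all tested genes and spots were higher and 16.4% lower, so that 1 of 6 is about the share over all of them. The median log2 ratio of the 6 was 0.02, beside 0.00 over all tested genes and spots.

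RVE5 and RVE6 are MYB-like factors related to the morning genes CCA1 and LHY, and RVE6 activates evening genes. RVE6 had log2 ratios of -0.19, -0.06 and -0.02 (mean -0.09 ± 0.09, SD, n = 3, limma adjusted p = 0.38). RVE5 had -0.02, 0.14 and 0.23 (mean 0.12 ± 0.12, SD, n = 3, limma adjusted p = 0.32), but 0.90 over Cy5-wounded and -0.66 over Cy3-wounded arrays. Its dye effect was 0.78 on the log2 scale (limma adjusted p = 0.030). RVE5 was called higher on the arrays of the first orientation alone and lower on those of the other.

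SPY, an O-fucosyltransferase that binds GI, had log2 ratios of -0.04, 0.20 and -0.10 (limma adjusted p = 0.87). Its spot was as dim as that of GI, below the dim limit on 4 arrays in the wounded and 5 in the not wounded sample, and it had a dye effect of -0.33 on the log2 scale (limma adjusted p = 0.042). CDF5, one of the DOF repressors that GI and FKF1 remove, had 0.10, -0.08 and 0.05 (limma adjusted p = 0.84). TIC (TIME FOR COFFEE), a nuclear regulator of clock period, was above 0 in 3 of 3 replicates, at 0.07, 0.22 and 0.08 (mean 0.12 ± 0.09, SD, n = 3, limma adjusted p = 0.25). XCT (XAP5 CIRCADIAN TIMEKEEPER), a conserved nuclear protein that sets clock period, was below 0 in 3 of 3, at -0.31, -0.18 and -0.18 (mean -0.22 ± 0.08, SD, n = 3, limma adjusted p = 0.080). It is the 1 gene that passed the unadjusted threshold. XCT had -0.40 over Cy5-wounded and -0.04 over Cy3-wounded arrays.

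**Figure D3:**
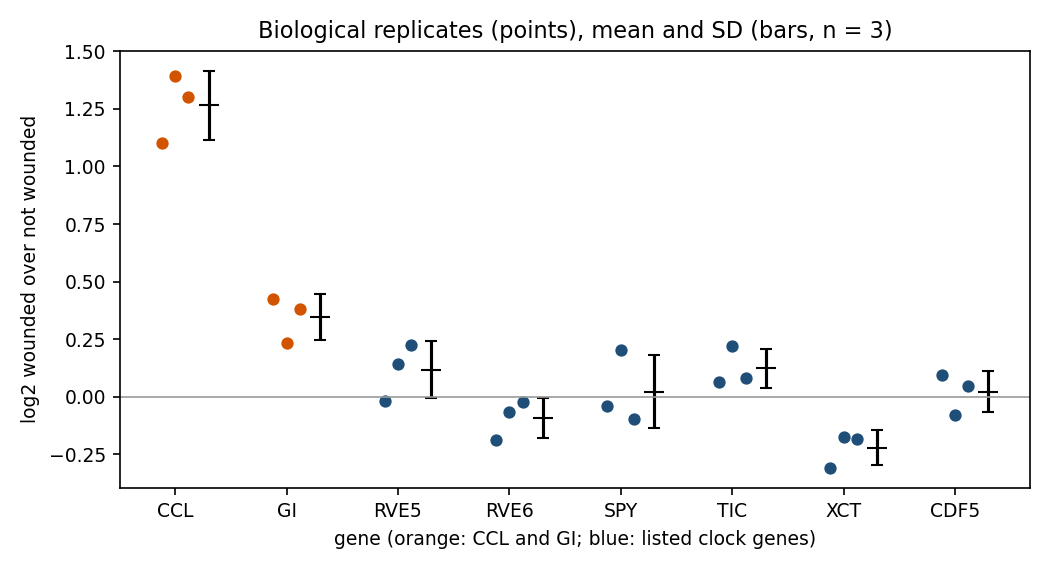
Log2 ratio of wounded over not wounded in each biological replicate (points) with the mean and SD (bars, n = 3) for CCL and GI (orange) and the 6 listed clock genes with a named spot (blue). CCL lies between 1.10 and 1.39 and GI between 0.23 and 0.42, and the listed genes lie between -0.31 and 0.23.

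The genes beside CCL and GI on the chromosome were read from the gene order of assembly TAIR10.1, up to 3 protein-coding genes to each side, and were looked up after the values of CCL and GI had been seen. Of these 12 neighbours, 5 have a named spot. The gene adjoining CCL on one side is measured and those adjoining GI are not. Near CCL, AT3G26720, the second gene to one side, stood at -0.05 on the log2 scale (limma adjusted p = 0.72). The adjoining AT3G26730 had -0.31 in the mean of 3 replicates (limma adjusted p = 0.031), but its direction followed the dye, with 0.74 over Cy5-wounded and -1.36 over Cy3-wounded arrays, while its replicates lay close together at -0.30, -0.31 and -0.32. Its log2 ratio was -0.31 without replicate 2 and also without replicate 3, but the limma adjusted p was 0.19 and 0.16. It did not pass either with the median of 4 arrays (-0.26, limma adjusted p = 0.068), without the array of the differing label (-0.19, 0.37) or with unpaired levels (-0.31, 1.00). Near GI, AT1G22750, AT1G22790 and AT1G22800, which are 2 or 3 genes away, had log2 ratios of -0.06, -0.09 and 0.05 (limma adjusted p of 0.54, 0.41 and 0.62). None of the 5 was at least 2-fold higher. Over all tested genes and spots 0.702% were, so none among 5 does not set these neighbours apart.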

How the data were processed

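Two-colour arrays of wounded and not wounded leaves were scanned by the authors and read with Agilent Feature Extraction 8.1, and the dyes were scaled on housekeeping genes according to the methods. The deposited processed intensities of both dyes, already corrected for background, were used as given. The deposited log10 ratios of Cy5 over Cy3 matched them (Pearson r of at least 0.999 per array where the ratio is not 0) and served as an alternative. Log2 of wounded over not wounded was taken per array, turned by the channel labels and reduced to 1 mean per biological replicate (4 arrays each). For 1 Cy3-wounded array of replicate 3 the number in a channel label departs from that in the title, and the title was followed. Spots of a gene were averaged, and a spot was kept if each of 6 dye-swap pairs held at least 1 array with a deposited ratio other than 0. Other genes, and the dye contrast, were compared with 0 by limma 3.58.1 (R 4.3.3, n = 3), and p-values of the 20072 genes and spots were adjusted together by Benjamini-Hochberg. Simulated data with known changes were used to test this fit. Their noise between arrays was set to a small part of a spot's SD over arrays, and the SDs between replicates were shuffled over spots. The simulated data therefore do not show how the fit performs at the noise of these arrays. They also gave a spot the same dye effect in all replicates, so they do not cover dye values that differ between replicates, as those of CCL did.

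Names came from the platform annotation through Entrez identifiers and a TAIR10.1 gene table, which matched 9317 of 9335 spots with 1 gene symbol. Control flags, saturation flags, slide and scan were not used here, and no sequences were used. The precision is limited by the number of biological replicates, which was 3. CCL, GI, the lists and the tests were chosen with earlier results of these data known. The text names CCL and GI, of each clock list the 2 genes lowest in p at most, any listed gene that was called, and the 3 nearest in pattern to each of CCL and GI. Alternatives were other normalizations, the deposited ratios, a floor at the dim limit, single dye orientations, other averaging, other filters, left-out arrays and replicates, and unpaired levels.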

Additional observations from a re-analysis of the deposited data

How the results depend on the processing

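The log2 ratio of CCL was 1.24 to 1.27 under other normalizations, the deposited ratios, single orientations, the median of 4 arrays and without the array of the differing label, and 1.20 to 1.35 with replicates left out. The floor at the dim limit, which changed no CCL value, and the unpaired fit give the same mean by construction. That of GI was above 0 in all 12 but was 0.19 with signals raised to the dim limit, 0.12 over Cy5-wounded and 0.57 over Cy3-wounded arrays. With levels fitted as unpaired groups (no replicate block) the means were 1.27 and 0.35, and 0 listed clock genes were called. The replicate numbers in the titles, which were followed for the array of the differing label, mark the pools hybridised together. The pairing is thus given by the design. Of the listed clock genes 1 was called higher (RVE5) and 1 lower (XCT) over Cy5-wounded arrays alone, and 0 and 1 (RVE5) over Cy3-wounded arrays alone. The dye value of CCL ran from -0.11 to 0.11 with replicates left out and turned sign without replicate 3. AT3G26730 turned to 0.74 over Cy5-wounded arrays. Counts over all genes fell from 1455 higher and 1454 lower to 139 and 51 without replicate 2, 334 and 220 without replicate 3, 173 and 82 without the array of the differing label, which leaves the dyes of replicate 3 unequal, and 27 and 0 with unpaired levels. Without replicate 1 the counts did not fall and were 1479 and 1683. With single orientations they rose to 2837 and 3145 (Cy5-wounded) and 3847 and 3234 (Cy3-wounded). Within a single orientation a dye effect and a wounding effect cannot be told apart, so these calls may hold either. Signal near the dim limit bounds what can be said of GI and SPY.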
